A study of Homo sapiens with 6 samples.

Results

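The genes described here encode the core of the death receptor signalling complex, and were taken as a list of 10 named genes, FAS, TNFRSF1A, TNFRSF21, FADD, TRADD, RIPK1, TRAF2, CASP8, CASP10 and CFLAR. All 10 were found among the 60675 gene identifiers of the count files, and all 10 were among the 15261 genes that passed the filter on low counts. They were measured by RNA-seq of ribosome-depleted RNA from MDA-MB-231 cells, an established human triple-negative breast cancer line. The control group was 3 wells without added vitamin C, and the vitamin C group was 3 wells given sodium ascorbate at 100 μM for 3 days, with fresh medium each day. Both groups were the same unmodified line, so a single cell line stands for breast cancer here. Neither the labels nor the methods state whether the 3 wells of a group came from separate experiments, so the p-values rest on well-to-well spread, which may be technical.

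Death receptors are members of the TNF receptor family whose cytoplasmic death domain recruits adaptors once a ligand binds. FADD joins the receptor to the initiator caspases CASP8 and CASP10, which activate each other when brought together, while CFLAR, also called c-FLIP, resembles CASP8 but has no full protease activity and competes with it for FADD. At TNFRSF1A the adaptor TRADD first gathers RIPK1 and TRAF2 into a complex that activates NF-kappaB and survival genes, and a second complex with FADD and CASP8 can form from it afterwards. The comparison asked whether the transcripts of these receptors, adaptors and caspases differed after vitamin C, a treatment that the study linked to apoptosis through the death ligand TRAIL.

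Reads counted in genes ranged from 17664345 to 22373591 in the control libraries and from 13434130 to 19553914 in the vitamin C libraries. Read pairs that did not map were 24.2% to 34.4% of a control library, and 40.7%, 49.5% and 24.7% of vitamin C 1, 2 and 3. Vitamin C 3 therefore lay within the range of the controls, and vitamin C 1 and 2 lay above it. Mitochondrial mRNAs were 1.03% to 1.18% of the counts of a control library, and 1.79%, 1.71% and 1.01% of those of vitamin C 1, 2 and 3. Mesenchymal genes of this line were abundant, with AXL, a receptor tyrosine kinase, at 854 to 927 CPM over the 6 libraries, whereas ESR1, the estrogen receptor, had 0 counts in all 6 libraries. Of 22 markers of cell types 13 passed the filter on low counts and were tested, of which 2 were higher and none was lower. Luminal markers summed to 65.6 to 71.4 CPM in the control and 91.5 to 94.5 CPM in the vitamin C libraries, of which EPCAM, an epithelial adhesion protein, passed the test. Fibroblast and endothelial markers summed to 7.40 to 11.8 CPM and 14.4 to 16.5 CPM, with DCN at 0 counts throughout and PECAM1, at 0.958 and 2.04 CPM, passing, while 4 immune markers together stayed at 0.448 CPM or less. The part of unmapped reads, depth, mitochondrial mRNA or these markers in the results below was not tested.

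Of the 10 genes, 2 were higher after vitamin C, 8 did not pass the test and none was lower. FAS rose from a mean of 5.93 to 8.96 CPM (counts per library size, adjusted by TMM factors) and CASP10 from 15.7 to 22.6 CPM. The test was edgeR's quasi-likelihood test on the deposited counts, with TMM factors and Benjamini-Hochberg adjustment over all genes tested, and a gene was called at an adjusted p under 0.05. By this rule 3.60% of all genes were called higher and 3.48% were called lower, that is 549 and 531 genes. Upper-quartile factors made these counts 687 and 377. DESeq2 called 4 of the 10 higher, which were FAS, CASP10, TNFRSF1A and CASP8, and none lower, against 4.11% and 5.97% of all genes. The study counted a gene as changed only when both tools gave an adjusted p under 0.05. With the quasi-likelihood test used here, FAS and CASP10 met this condition. The study does not name its edgeR test. With edgeR's likelihood ratio test, which called 1059 of all genes higher, TNFRSF1A (adjusted p = 0.0217) and CASP8 (adjusted p = 0.0336) met it too.

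The fold changes were small and mostly of one sign. Of the 10 estimates 9 were above 0, and the median log2 fold change was 0.28, beside 0.02 over all genes tested. At an unadjusted p under 0.05, 6 genes were higher (FAS, CASP10, TNFRSF1A, CFLAR, CASP8 and TRADD) and none was lower, against 14.3% of all genes higher and 13.1% lower. At an adjusted p under 0.1, 5 genes were higher and none was lower, against 8.23% and 7.93% of all genes. In 6 genes every vitamin C well lay above every control well, and in 1 gene, TRAF2, every vitamin C well lay below, while 15.7% of all genes had their wells apart with vitamin C higher and 16.6% with vitamin C lower. These are counts over a short list of genes that act together, and were not tested as a set. In bulk RNA a change in the number of cells with a transcript and a change in its amount per cell cannot be told apart.

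**Figure D1:**
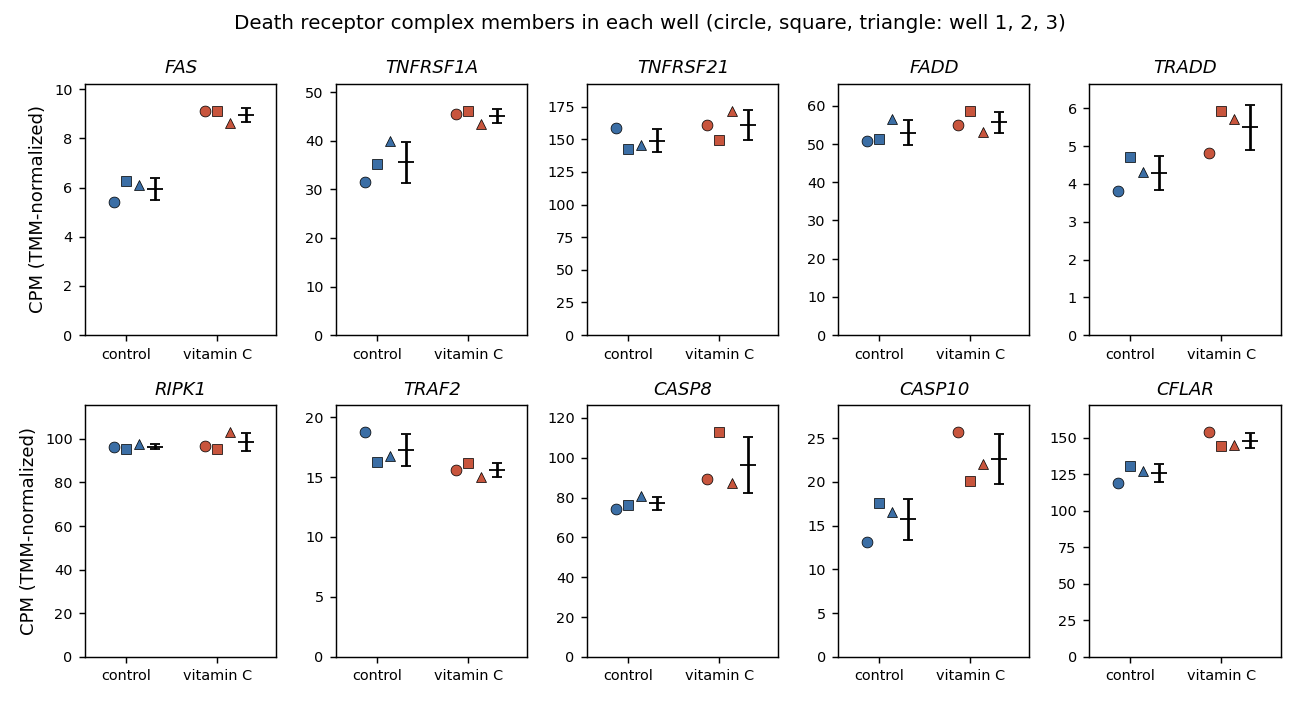
Expression of the 10 genes in each well, as CPM after TMM normalization on axes that start at 0, with control wells in blue, vitamin C wells in red, and the mean and SD of 3 wells beside them in black. The vitamin C wells of FAS, all between 8.63 and 9.13 CPM, sit above the control wells, whereas those of RIPK1 and FADD overlap with the controls.

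**Figure D2:**
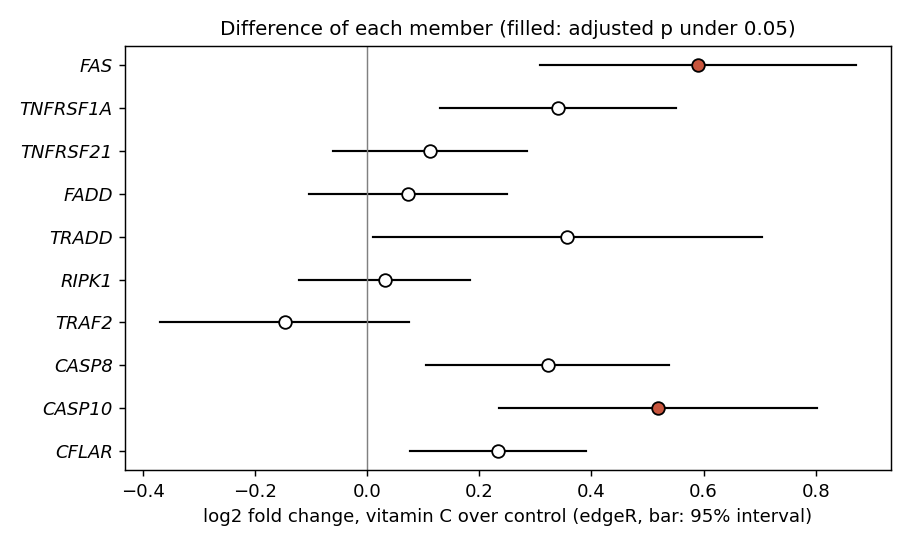
Difference of each gene between the groups, as the log2 of vitamin C over control, with its 95% interval as a bar and filled points for an adjusted p under 0.05. FAS at 0.59 and CASP10 at 0.52 are filled, and the intervals of TNFRSF21, FADD, RIPK1 and TRAF2 include 0.

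Promoter sequences are shown for FAS, CFLAR, CASP8 and TNFRSF1A, the 4 genes with the smallest p besides CASP10, for which the sequence table had no window. FAS, CFLAR and CASP8 have several starts in the table, of which 1 is shown for each. It is the first of these starts along the gene for FAS and CFLAR and the last for CASP8. The windows are the 250 bases before an annotated RefSeq start on GRCh38.p14, written 5′ to 3′ along the gene's own strand, with every CG dinucleotide (CpG), the site of DNA methylation, in capitals. They lie at chr10:88990548-88990797 on the + strand for FAS, chr2:201118466-201118715 on the + strand for CFLAR, chr2:201260286-201260535 on the + strand for CASP8 and chr12:6342077-6342326 on the − strand for TNFRSF1A.
FAS: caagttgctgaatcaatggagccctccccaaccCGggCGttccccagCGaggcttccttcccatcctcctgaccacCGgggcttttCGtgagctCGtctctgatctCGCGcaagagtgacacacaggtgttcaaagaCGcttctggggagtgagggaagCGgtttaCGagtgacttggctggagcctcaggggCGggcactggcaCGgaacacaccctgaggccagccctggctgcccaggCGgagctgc
CFLAR: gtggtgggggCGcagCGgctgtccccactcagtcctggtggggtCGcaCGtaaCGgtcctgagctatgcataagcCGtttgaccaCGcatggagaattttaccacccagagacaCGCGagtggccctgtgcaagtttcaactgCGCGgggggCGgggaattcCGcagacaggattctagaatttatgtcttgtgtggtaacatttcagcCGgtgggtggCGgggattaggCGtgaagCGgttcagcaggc
CASP8: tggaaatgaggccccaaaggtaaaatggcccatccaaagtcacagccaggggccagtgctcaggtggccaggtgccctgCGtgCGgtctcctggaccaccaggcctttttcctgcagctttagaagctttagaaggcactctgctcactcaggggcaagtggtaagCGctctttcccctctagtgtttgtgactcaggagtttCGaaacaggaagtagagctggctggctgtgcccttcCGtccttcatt
TNFRSF1A: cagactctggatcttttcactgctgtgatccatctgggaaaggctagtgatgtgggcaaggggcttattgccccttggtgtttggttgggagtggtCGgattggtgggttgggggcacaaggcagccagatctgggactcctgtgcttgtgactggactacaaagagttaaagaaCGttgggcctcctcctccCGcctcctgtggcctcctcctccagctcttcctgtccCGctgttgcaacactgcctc

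The FAS window shown held 14 CpG and the CFLAR window 17, while the CASP8 window held 5 and the TNFRSF1A window 4, and the median over 35116 promoter windows of the same length was 11. Windows with fewer CpG made up 55.2% of all windows for FAS, 61.0% for CFLAR, 34.3% for CASP8 and 29.3% for TNFRSF1A. Other starts gave other values. The 3 FAS windows of the table held 14, 11 and 19 CpG, the 3 CASP8 windows 6, 5 and 5, and the 4 CFLAR windows 17, 0, 0 and 22, so the order of these genes depends on the start taken. Of the genes not shown, FADD had 1 window with 32 CpG, TRAF2 1 with 35, TNFRSF21 1 with 20 and RIPK1 3 with 29, 14 and 28. DNA methylation was not analysed here, so the sequences describe the promoters only.

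Short motifs were searched on both strands of 17 windows of 8 of the 10 genes. GGGCGG, the GC box bound by SP1-family factors, was in 42.6% of all windows and had 1 match in the FAS window and 1 in the CFLAR window shown, but none in that of CASP8 or TNFRSF1A, while the CASP8 window at chr2:201233213-201233462 had 1. ACGTG, the core of the hypoxia response element, was in 18.5% of all windows, and of those shown the CFLAR window had 1 match. Of the windows not shown, the TNFRSF21 window had 2 matches, 1 on each strand of a single stretch, CACGTG, which reads the same on both strands. The CASP8 window at chr2:201257785-201258034 and the FAS window at chr10:88991181-88991430 had 1 each. GGGNNNTTCC, one spelling of an NF-kappaB site, was in 5.67% of all windows, and among the 17 windows it was found in the CFLAR window alone, as GGGGAATTCC. A match describes the letters and not a bound site.

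The 3 receptors ranged from a low to a high level, and 1 of them passed the test. FAS (ENSG00000026103, chromosome 10, 88953813 to 89029605, + strand), the receptor for FAS ligand, was at 5.41, 6.26 and 6.12 CPM in control 1, 2 and 3 and at 9.12, 9.13 and 8.63 CPM in vitamin C 1, 2 and 3. The groups did not overlap, with control 2 and vitamin C 3 nearest to each other. Vitamin C wells averaged 8.96 ± 0.284 CPM and control wells 5.93 ± 0.455 CPM (SD, n = 3 each), and the log2 fold change was 0.59 (SE 0.13, 95% interval 0.31 to 0.87, edgeR adjusted p = 0.0269, DESeq2 adjusted p = 0.0263).

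FAS had few reads, with counts of 95, 141 and 123 for the controls and of 123, 126 and 172 for vitamin C. Its raw counts thus overlapped between groups, and the difference appeared after scaling to library size, vitamin C 1 and 2 being shallower than every control. In edgeR the call was kept without vitamin C 3 and lost when any other library was left out, with adjusted p from 0.0523 to 0.101 and log2 fold changes of 0.53 to 0.63 over all 6 such fits. In the annotation FAS shares 1899 exon bases with an antisense RNA gene, ENSG00000286116, which was not among the identifiers of the count files. FAS also shares 387 with ACTA2 and 166 with STAMBPL1. No source used here gives the strand setting of the counting, and whether reads of the antisense gene were counted for FAS was not tested. ACTA2 had 12 to 32 counts, and STAMBPL1, with 959 to 1763 counts, had a log2 fold change of -0.11 (edgeR adjusted p = 0.4).

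TNFRSF1A (ENSG00000067182, chromosome 12, 6328757 to 6342114, − strand), the main receptor for TNF, was at 31.5, 35.2 and 39.9 CPM in the control wells and 45.6, 46.2 and 43.4 CPM in the vitamin C wells. The groups did not overlap, with control 3 and vitamin C 3 nearest to each other. The means were 35.5 ± 4.23 and 45.1 ± 1.47 CPM (SD, n = 3 each), with a log2 fold change of 0.34 (SE 0.10, 95% interval 0.13 to 0.55). The adjusted p was 0.0536 in edgeR and 0.045 in DESeq2, so the tools fell on either side of the threshold.

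TNFRSF21 (ENSG00000146072, chromosome 6, 47231532 to 47309905, − strand), also called DR6, is a death domain receptor known from neurons and lymphocytes. Its values were 159, 142 and 145 CPM in the control wells and 161, 150 and 172 CPM in the vitamin C wells. The groups overlapped, since control 1 was above vitamin C 2. The log2 fold change was 0.11 (SE 0.08, 95% interval -0.06 to 0.29, edgeR adjusted p = 0.382), an interval that leaves out a rise as large as the FAS estimate.

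Neither death domain adaptor passed the test. FADD (ENSG00000168040, chromosome 11, 70203296 to 70207390, + strand) was at 50.7, 51.3 and 56.6 CPM in the control wells and 55.0, 58.7 and 53.2 CPM in the vitamin C wells. Its wells were mixed, and the log2 fold change was 0.07 (SE 0.08, 95% interval -0.10 to 0.25, edgeR adjusted p = 0.596). A long non-coding RNA gene, ENSG00000254721, shares 1011 exon bases with FADD but had 8 to 23 counts a library.

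TRADD (ENSG00000102871, chromosome 16, 67154185 to 67159909, − strand), the adaptor of TNFRSF1A, was the least abundant adaptor, at 3.81, 4.71 and 4.33 CPM in the control wells and 4.82, 5.94 and 5.72 CPM in the vitamin C wells. Every vitamin C well was above every control well, with vitamin C 1 nearest to the controls. With 65 to 114 counts a library the log2 fold change of 0.36 had a wide interval (SE 0.16, 95% interval 0.01 to 0.70), and the adjusted p was 0.173 in edgeR and 0.362 in DESeq2.

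Neither the kinase nor the ubiquitin ligase of the TNF receptor complex passed the test. RIPK1 (ENSG00000137275, chromosome 6, 3063824 to 3115187, + strand), the scaffold kinase between survival and death signalling, was at 96.1, 95.3 and 97.5 CPM in the control wells and 96.9, 95.2 and 103 CPM in the vitamin C wells. Its log2 fold change of 0.03 had an SE of 0.07 and a 95% interval of -0.12 to 0.18 (edgeR adjusted p = 0.807). TRAF2 (ENSG00000127191, chromosome 9, 136881912 to 136926607, + strand), which recruits further ubiquitin ligases, was at 18.7, 16.2 and 16.8 CPM in the control wells and 15.6, 16.2 and 15.0 CPM in the vitamin C wells.

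TRAF2 was the one gene of the 10 with an estimate below 0, at -0.15 (SE 0.10, 95% interval -0.37 to 0.08, edgeR adjusted p = 0.376). Its groups were apart only in the narrowest sense, since control 2 and vitamin C 2 were both at 16.2 CPM after rounding.

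The initiator caspases and their regulator are neighbours on chromosome 2, all on the + strand, in the order CFLAR, CASP10, CASP8. CASP10 (ENSG00000003400, 201182872 to 201229428) was at 13.1, 17.5 and 16.5 CPM in the control wells and 25.6, 20.1 and 22.1 CPM in the vitamin C wells. The groups did not overlap, with control 1 the lowest well and vitamin C 1 the highest. Control wells averaged 15.7 ± 2.32 CPM and vitamin C wells 22.6 ± 2.83 CPM (SD, n = 3 each), and the log2 fold change was 0.52 (SE 0.13, 95% interval 0.23 to 0.80, edgeR adjusted p = 0.0388, DESeq2 adjusted p = 0.0141). The edgeR call was lost without control 1 (adjusted p = 0.135), control 2 (0.0767), control 3 (0.0618) or vitamin C 1 (0.119), and kept without vitamin C 2 or 3.

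CASP8 (ENSG00000064012, chromosome 2, 201233443 to 201361836), the main initiator caspase of the complex, was at 74.4, 76.2 and 80.6 CPM in the control wells and 89.1, 113 and 87.4 CPM in the vitamin C wells. Every vitamin C well was above every control well, but vitamin C 2, the library with the largest unmapped share, stood far above the other two. The log2 fold change was 0.32 (SE 0.10, 95% interval 0.11 to 0.54), with an adjusted p of 0.0663 in edgeR and 0.0481 in DESeq2. Without vitamin C 2 the log2 fold change was 0.19 (edgeR adjusted p = 0.173).

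CFLAR (ENSG00000003402, chromosome 2, 201116154 to 201176687), the inhibitor of CASP8 activation, was at 119, 131 and 127 CPM in the control wells and 154, 145 and 145 CPM in the vitamin C wells. The groups did not overlap. The means were 126 ± 6.23 and 148 ± 5.08 CPM (SD, n = 3 each), and the log2 fold change was 0.23 (SE 0.07, 95% interval 0.08 to 0.39), with an adjusted p of 0.0661 in edgeR and 0.0775 in DESeq2. CFLAR shares 777 exon bases with its antisense gene CFLAR-AS1, which had 46 to 84 counts a library and a log2 fold change of 0.04. It also shares 1488 with the pseudogene IMPDH1P10 on the other strand, which had 10 to 27 counts a library.

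The region around these 3 genes was examined because they are adjacent, with 6184 bases between CFLAR and CASP10 and 4014 bases between CASP10 and CASP8. Within 1000 kb on either side of the middle of CASP10, 24 other genes were tested, of which 3 were higher, 2 were lower and 19 did not pass. Over all genes 3.60% were called higher and 3.48% lower. The median log2 fold change of the 24 was 0.06, and 13 of them were above 0. The higher genes were C2CD6, CDK15 and FZD7, which lie on the CASP8 side, and the lower genes were AOX1, an aldehyde oxidase, and BZW1, a translation regulator, which lie on the CFLAR side. TRAK2, the nearest tested gene beyond CASP8, had a log2 fold change of 0.08 (edgeR adjusted p = 0.609), and NDUFB3, a subunit of respiratory complex I beyond CFLAR, one of -0.32 (edgeR adjusted p = 0.18).

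**Figure D3:**
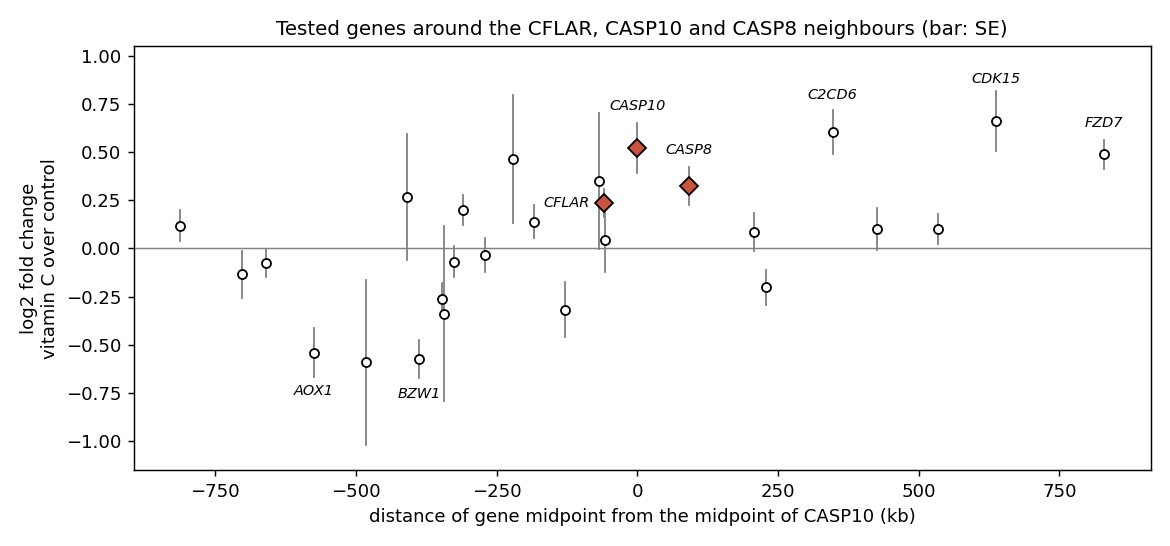
Difference on the log2 scale, vitamin C over control, with its SE, for the 27 tested genes within 1000 kb of the middle of CASP10, against the distance of each gene's midpoint in kb. Red diamonds mark CFLAR, CASP10 and CASP8, which are all above 0, and genes on both sides are above and below 0.

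Ratios between partners of the complex were compared within each library, where the normalization cancels. The count of FAS over that of FADD was 0.107, 0.122 and 0.108 for the controls and 0.166, 0.155 and 0.162 for vitamin C. Receptor transcript relative to adaptor transcript was thus higher in all 3 vitamin C libraries, by 0.52 on the log2 scale (exact permutation p = 0.1, adjusted over 6 ratios 0.2). With 3 libraries against 3 there are 20 arrangements and no two-sided p can be below 0.1.

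FADD over CASP8 was 0.682, 0.673 and 0.703 for the controls and 0.617, 0.521 and 0.609 for vitamin C, lower in all 3 by a log2 difference of -0.24 (exact permutation p = 0.1, adjusted 0.2). TRAF2 over RIPK1 also had its libraries apart, at a log2 difference of -0.17 (exact permutation p = 0.1, adjusted 0.2), though control 2 at 0.171 and vitamin C 2 at 0.170 were almost equal. For CFLAR over CASP8, inhibitor over caspase, the counts were not corrected for gene length, so the size of the ratio does not show which transcript was more abundant. Per kilobase of merged exons CASP8 was the higher, at 10.6 beside 5.60 in the control wells. The count ratios were 1.60, 1.72 and 1.58 for the controls and 1.73, 1.28 and 1.66 for vitamin C. These overlapped, with a log2 difference of -0.08 (exact permutation p = 0.9, adjusted 1), and the difference was 0.05 without vitamin C 2. Neither CASP10 over CASP8 (log2 difference 0.21, exact permutation p = 0.4) nor TRADD over TNFRSF1A (0.01, exact permutation p = 1) separated the groups.

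Levels of different genes were compared per length, as CPM per kilobase of merged exons. In the control wells TNFRSF21 was the highest at 41.4, followed by FADD at 31.0, CASP8 at 10.6, TNFRSF1A at 8.45, RIPK1 at 7.91, CFLAR at 5.60, TRAF2 at 4.71, TRADD at 1.97, CASP10 at 1.76 and FAS at 0.202. TNFRSF1A and RIPK1 did not differ beyond the spread of these control wells, nor did TRADD and CASP10. After vitamin C TNFRSF1A, at 10.7, was above RIPK1, at 8.08, without overlap. FAS and CFLAR have merged exons of 29313 and 22478 bases because of long annotated transcripts, which lowers their values on this scale.

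Per kilobase of the canonical transcript, FAS was at 1.60 ± 0.123 in the control wells and 2.42 ± 0.0768 in the vitamin C wells (SD, n = 3 each), and remained the lowest of the 10 in both groups. On this scale CASP8 stood at 29.0 ± 1.19 in the control wells, within the spread of FADD at 31.0 ± 1.91, and at 36.3 ± 5.34 after vitamin C, where it overlapped with both TNFRSF21 and FADD. CFLAR was at 8.61 ± 0.426 and did not differ from TRAF2 at 7.61 ± 0.58 beyond their spread in the control wells. RIPK1 was above TNFRSF1A without overlap, at 23.5 and 16.4 in the control wells and 24.0 and 20.8 after vitamin C, so their order depended on the length used. TNFRSF21 was the highest in both groups with every length used, although its overlap with CASP8 after vitamin C depended on the length.

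Around the complex, 75 other genes of the pathway were grouped in 9 lists, of which 74 were found in the files and 64 were tested. In edgeR 2 of these 64 were higher and 62 did not pass, with none lower, against 3.60% of all genes higher and 3.48% lower. DESeq2 called 3 higher and 1 lower, against 4.11% and 5.97% of all genes. Among the death ligands 2 of 6 were expressed well enough to be tested. TNFSF10, which encodes TRAIL, averaged 91.1 ± 21.1 CPM in control and 171 ± 10.8 CPM in vitamin C wells (SD, n = 3 each) and rose by 0.90 on the log2 scale (SE 0.14, edgeR adjusted p = 0.00886). FASLG, the ligand of FAS, had 0 counts in all 6 libraries, which allows up to 0.133 to 0.222 CPM in a library (3 counts, for counting error only). TNF had at most 1 count in any library.

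None of 4 other death domain receptors tested and none of 3 decoy receptors tested passed. TNFRSF10B, the most abundant TRAIL receptor, was at 137 ± 3.93 and 121 ± 9.55 CPM (SD, n = 3 each), with a log2 fold change of -0.18 (edgeR adjusted p = 0.156). TNFRSF10D, a decoy for TRAIL, had one of -0.29 (edgeR adjusted p = 0.0671). TNFRSF10C, another decoy for TRAIL with 14 to 32 counts a library, had one of 0.81 (edgeR adjusted p = 0.0811). The median was -0.10 for the 4 receptors and 0.16 for the 3 decoys, beside 0.28 for the 10 genes of the complex.

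Downstream of the initiator caspases, none of 7 genes for caspases, BID and XIAP passed, and 6 of the 7 had an estimate below 0. XIAP, an inhibitor of effector caspases and the most abundant of them, was at 137 ± 7.03 and 137 ± 5.84 CPM (SD, n = 3 each), and its log2 fold change was -0.01. Neither the 9 further adaptors and death-effector regulators tested nor the 12 ubiquitin ligases and deubiquitinases tested held a called gene, with medians of 0.06 and 0.04. PEA15, the most abundant of the first list, had a log2 fold change of 0.06. BIRC3, a ubiquitin ligase that TRAF2 recruits, had one of 0.15 (edgeR adjusted p = 0.184), and BIRC2, another, one of -0.15 (edgeR adjusted p = 0.283).

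Of 10 kinases of the TNF pathway, 1 was higher and 9 did not pass. It was MAP3K14, the kinase NIK of the alternative NF-kappaB pathway, at 25.6 ± 2.52 CPM in control and 35.1 ± 5.14 CPM in vitamin C wells (SD, n = 3 each), which rose by 0.45 on the log2 scale (SE 0.12, edgeR adjusted p = 0.0457, DESeq2 adjusted p = 0.0186). The edgeR call was lost when any library but vitamin C 3 was left out. MLKL, the executor of necroptosis, was at 26.9 and 29.3 CPM and did not pass, and RIPK3, the kinase that acts on it, had at most 1 count in any library.

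Of 16 NF-kappaB factors and target genes tested none passed in edgeR, and the median log2 fold change was 0.00. CXCL8, a chemokine and the most abundant of them, had a log2 fold change of -0.25 (edgeR adjusted p = 0.143). DESeq2 called the cytokine IL6 higher (adjusted p = 0.0153) and the chemokine CXCL1 lower (adjusted p = 0.0148), with edgeR log2 fold changes of 0.61 and -0.34. The wells of CXCL1 did not overlap between groups. Those of IL6 did, with control 1 at 23.8 CPM, vitamin C 3 at 23.7 CPM and vitamin C 2 the highest at 42.2 CPM.

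**Figure D4:**
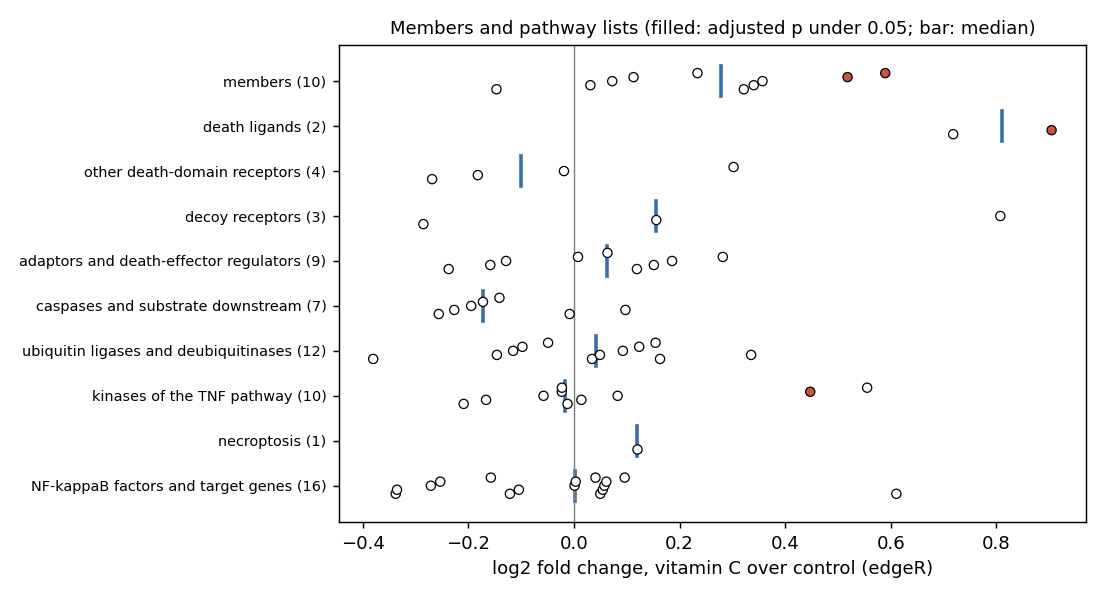
Difference between vitamin C and control on the log2 scale, with vitamin C higher to the right, for the 10 genes of the complex and for each list around it, with the number of genes tested in parentheses, filled points for an edgeR adjusted p under 0.05 and a blue bar at the median. Filled points are FAS and CASP10 among the 10 genes, TNFSF10 among the ligands and MAP3K14 among the kinases.

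Genes with a pattern most like that of the called members were sought among 9653 protein-coding genes that averaged 100 counts or more, by Pearson's r of log2 CPM over the 6 libraries, which all genes share. The closest to FAS were FZD7 (r = 0.998), PITPNM2 (r = 0.996) and ITPR1 (r = 0.994). For CASP10 they were PMEPA1 (r = 0.999), SYNJ2 (r = 0.992) and LTBP3 (r = 0.992). With 6 points in 2 groups and so many candidates such values are a description, and carry no p. Of these 6 genes, FZD7, PITPNM2 and LTBP3 passed the edgeR test and the other 3 did not.

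**Figure D5:**
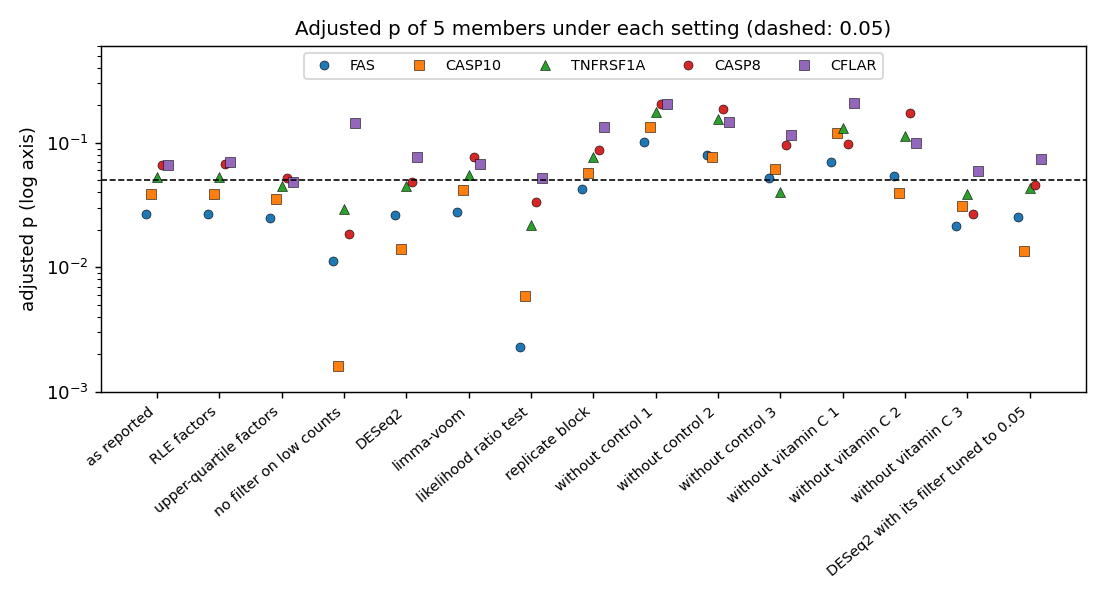
Adjusted p on a log axis of FAS, CASP10, TNFRSF1A, CASP8 and CFLAR as reported and under each alternative, with a dashed line at 0.05. FAS and CASP10 lie below the line as reported, and leaving out control 1 puts all 5 genes above it, at 0.101 to 0.207.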

How the data were processed

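RNA-seq of 6 libraries was analysed, 3 per group, with groups taken from the sample titles. The submitters' processing notes name CASAVA 1.4 for base calling, Trim Galore for trimming, STAR for alignment and the build hg38. What the authors deposited were unnormalized read counts for each gene, by Ensembl identifier. No source used here gives the STAR version, the annotation release or the strand setting. Summary lines for reads not assigned to a single gene, unmapped reads among them, were left out. They were 50.6% to 58.1% of a control library and 64.2%, 69.7% and 51.6% of vitamin C 1, 2 and 3. A deposited table of all samples was not used.

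Gene names and positions came from GENCODE 44 on GRCh38, which held 93.2% of the identifiers, and promoter windows came from RefSeq. Counts were tested in R 4.3.3 with edgeR 4.0.16 (TMM, filterByExpr with a minimum of 10 counts, glmQLFit and glmQLFTest), and DESeq2 1.42.0 and limma 3.58.1 (voom) were alternatives. Intervals are 95% intervals from edgeR's residual degrees of freedom. TMM factors ran from 0.972 to 1.02 and the biological coefficient of variation was 9.40%. On simulated data for this comparison, over 15034 genes, edgeR found 79.1% of the genes changed 1.5-fold and 100% of those changed 2-fold, and 13 of its 199 calls were false. The changed genes were drawn from those that averaged at least 100 counts, so these shares do not cover genes with fewer. Replicates differed by more than sampling noise in every pair.

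The 10 genes, the lists, the markers and the motifs were chosen with earlier results of these data known. The rule for named genes took all 10, up to 3 called genes with the smallest p from each other list or else its most abundant gene, and 3 genes with the most similar pattern to each called member. FASLG, TNF, IL6, CXCL1, RIPK3, BIRC2, TNFRSF10C, the genes around CASP10 and those sharing exons were named after their values were seen. Some listed genes are not reported here.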

Additional observations from a re-analysis of the deposited data

How the results depend on the processing

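The count of complex genes called higher, 2 as reported, was 2 with RLE factors and with limma-voom. It was 4 with upper-quartile factors, with no filter on low counts, with DESeq2, with the likelihood ratio test and with DESeq2 tuned to 0.05, a setting added after the data were seen, and 5 at an adjusted p under 0.1, where 1256 of all genes were called higher. Leaving out 1 library gave 0 to 4. The count was 0 without control 1, control 2 or vitamin C 1, was 1 without control 3 or vitamin C 2, and was 4 without vitamin C 3, while over all genes such fits called 69 to 942 higher and 59 to 958 lower, fewest without control 1 and most without vitamin C 3. Over all genes 1079 were called higher and 1166 lower with no filter, and 1059 and 923 with the likelihood ratio test, against 549 and 531 as reported. Of 14 alternatives FAS and CASP10 each passed in 9, TNFRSF1A in 7, CASP8 in 5 and CFLAR in 1. No complex gene was called lower under any of these settings. All 10 log2 fold changes kept their sign under these 14, except that RIPK1 was -0.0055 without vitamin C 3 and up to 0.0525 when another library was left out.

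With a replicate block for the well number the count was 1, since FAS kept its call and CASP10 did not (adjusted p = 0.0576), and 393 genes were called higher and 338 lower overall. Deviations of same-numbered wells from their group means correlated at -0.02, -0.06 and -0.05, and those of differently numbered wells at -0.05 to 0.11. With 3 wells a group these values cannot show whether the numbers mark paired wells.

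The kinases called higher, 1 as reported, were 0 with the replicate block, and 0 to 1 when 1 library was left out. In the NF-kappaB list DESeq2, with either tuning, called 1 higher and 1 lower, and leaving out 1 library gave 0 to 1 in each direction. The other death domain receptors called lower were 0 to 1 when 1 library was left out. The causes of these differences were not tested. Canonical transcript lengths were added after the data were seen. At this number of wells 1.5-fold changes were not always detectable.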
